A study of Mus musculus with 10 samples.

Results

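The 10 genes described here are the core pluripotency transcription factors Pou5f1 (which encodes Oct4), Nanog and Sox2, their partners Sall4, Esrrb, Tfcp2l1, Tbx3, Prdm14 and Zfp42 (Rex1), and the RNA-binding protein gene Lin28a. They were chosen by name from the inner cell mass and pluripotency genes. All 10 are among the 24411 genes in the table of every library, and 9 of them are among the 9522 genes abundant enough to be tested. Each library was made from polyadenylated RNA of 10 pooled mouse morulae with the SMART-Seq v4 PLUS kit. Oocytes of superovulated females were fertilized in vitro and the embryos were grown in KSOM medium, received an antisense oligonucleotide (ASO) at 3 to 6 h post insemination (hpi) and were collected at 72 hpi. In the Mettl3-ASO group (5 libraries) the oligonucleotide was directed at Mettl3, whose product catalyses the N6-methylation of adenosine in RNA. In the ASO-Control group (5 libraries) it had no target. Both groups thus share in vitro fertilization, culture and injection, and no uninjected embryos were compared. Replicates 3 to 5 of each group carry a batch 2 label, and replicates 1 and 2 carry none and are called untagged below. The strain is labelled ICR for the 4 untagged libraries. The series concerns METTL3 in mitochondrial function and epigenetic regulation of preimplantation development.

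Oct4, Sox2 and Nanog bind together at the enhancers of many genes of pluripotent cells, their own genes included. Oct4 is needed for a functional inner cell mass, Nanog for the pluripotent epiblast, and Sox2 becomes restricted to the inner cells from about the morula stage onward. Esrrb, Tfcp2l1, Tbx3 and Prdm14 hold the naive state, and Lin28a blocks the processing of let-7 microRNAs, which otherwise repress genes of early and proliferating cells.

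The stretches of sequence upstream of Nanog, Pou5f1 and Lin28a are shown so that the motifs of Oct4 and Sox2 can be seen, or seen to be missing, in 3 members whose levels changed. No link between these letters and the changes was tested. Each covers the 250 bases before an annotated start, taken from RefSeq on GRCm38.p6, and is written 5′ to 3′ on the strand of the gene. Capitals mark the octamer core TTTGCAT, the letters Oct4 binds, and the Sox core ACAATG, searched on both strands. Sequence farther from the starts was not searched, so a missing motif refers to these stretches alone.

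Nanog, chr6:122707239-122707488, plus strand: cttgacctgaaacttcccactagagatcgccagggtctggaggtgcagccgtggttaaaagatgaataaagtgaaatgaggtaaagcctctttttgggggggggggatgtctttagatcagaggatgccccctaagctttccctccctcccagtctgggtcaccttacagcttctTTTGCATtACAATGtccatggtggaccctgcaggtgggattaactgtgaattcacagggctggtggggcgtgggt

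Pou5f1 first start, chr17:35505782-35506031, plus strand: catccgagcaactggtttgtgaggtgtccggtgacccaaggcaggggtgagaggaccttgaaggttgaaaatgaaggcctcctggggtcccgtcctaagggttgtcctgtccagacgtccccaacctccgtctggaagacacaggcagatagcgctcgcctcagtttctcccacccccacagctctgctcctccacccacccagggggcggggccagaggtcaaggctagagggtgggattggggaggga

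Pou5f1 inner start, chr17:35508557-35508806, plus strand: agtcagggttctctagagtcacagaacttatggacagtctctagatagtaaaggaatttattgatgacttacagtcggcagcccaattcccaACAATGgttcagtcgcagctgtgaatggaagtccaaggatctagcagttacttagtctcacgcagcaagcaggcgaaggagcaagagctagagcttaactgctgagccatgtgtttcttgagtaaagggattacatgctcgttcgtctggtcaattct

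Lin28a, chr4:134018817-134019066, minus strand: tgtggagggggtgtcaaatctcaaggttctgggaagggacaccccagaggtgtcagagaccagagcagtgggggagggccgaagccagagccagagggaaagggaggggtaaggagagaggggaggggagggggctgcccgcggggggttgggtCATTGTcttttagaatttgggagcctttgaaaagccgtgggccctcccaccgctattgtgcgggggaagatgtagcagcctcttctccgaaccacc

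In the Nanog window the octamer core lies at -75 to -69 from the start and the Sox core at -67 to -62, with 1 base between them. This arrangement is the well-known composite element of the proximal Nanog promoter. Among 32851 upstream windows of this length it was found in 2 (0.00609%), which are the windows of Nanog's pair of annotated starts 76 bases apart and hold the same site. Singly, the octamer core was in 4.12% of the windows and the Sox core in 10.7%. Of 7 members with an entry in the RefSeq table (10 windows), 3 had the octamer core (Nanog, Sox2 and Zfp42) and 3 the Sox core (Nanog, Lin28a and Pou5f1). The Pou5f1 match, at -158 to -153, belongs to an inner start in intron 1 of its 5 exons, 2775 bases downstream of the first start. The Lin28a match is on the strand opposite to the gene, at -96 to -91. No match was found in the windows of Esrrb and Tfcp2l1. Sall4, Tbx3 and Prdm14 were not analysed here. A match describes the letters and is no evidence of binding.

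The libraries differed in depth by batch, from 9905830 to 13530284 expected counts in the untagged ones and from 21412857 to 32327283 in batch 2. The targeted gene, Mettl3, had 6.58 to 12.68 FPKM (a level scaled to transcript length and to the library's fragments) in ASO-Control and at most 0.04 in Mettl3-ASO, with 3 counts in all 5 libraries together (two-sided exact permutation within batches, p = 0.0167, the smallest that 120 relabellings allow). All 10 markers of morula and early blastocyst cells reached 1 FPKM in at least 1 library. Of these 2 rose and 4 fell, where 25.4% of all tested genes rose and 24.0% fell. The defining markers of cumulus and granulosa cells were near 0: the 9 together summed to 0.02 to 0.22 FPKM in ASO-Control and to 0.05 to 1.11 in Mettl3-ASO, and Has2, Amh, Inhba and Cyp19a1 were at 0 in every library. The 7 sperm markers summed to 0.51 to 2.22 and 0.25 to 3.04 FPKM, with Akap4 and Smcp at 0. Markers of earlier stages moved with the groups, and of the later markers Dab2 did. Of 14 listed genes of the 2-cell stage, the 13 in the tables summed to 3.05 to 13.9 FPKM in ASO-Control and to 652 to 2080 in Mettl3-ASO, and all 12 that were tested rose, among them Tcstv3, Tdpoz4 and Tcstv1. The minimum for testing was a mean of 1 FPKM over all 10 libraries. Genes near 0 in ASO-Control, such as Tdpoz4 (mean 0.32 FPKM), passed it only through Mettl3-ASO. For such genes a rise was largely fixed by the filter, and the count of rises adds no support. The 10 oocyte markers summed to 3.52 to 7.06 and 12.9 to 27.3 FPKM, with 2 of 3 tested genes (Zp3 and Oosp1) higher. Oosp1, at a mean of 0.692 FPKM in ASO-Control, also passed the minimum only through Mettl3-ASO. The 7 later primitive endoderm markers went from 135 to 158 FPKM in sum down to 24.8 to 56.2, which was mostly Dab2. Of the 2 tested, Dab2 fell from a mean of 145 to 33.9 FPKM, and Col4a1 did not pass (edgeR quasi-likelihood test, adjusted p = 0.402). Among the untested ones, Gata4 (mean 0.208 to 1.09 FPKM) and Sox17 (0.012 to 0.078) went the other way, and Sox7, Pdgfra and Lama1 had lower means in Mettl3-ASO. The part of these stage differences in the results below was not tested.

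The core factors did not move as a unit. Of the 9 tested members, 3 rose after Mettl3-ASO (Sall4, Esrrb and Nanog), 3 fell (Lin28a, Pou5f1 and Tfcp2l1), and Zfp42, Tbx3 and Prdm14 passed no threshold. A gene is called when its adjusted p is under 0.05, from edgeR's quasi-likelihood test with Benjamini-Hochberg adjustment over all tested genes and a term for batch. By that rule 25.4% of all tested genes were called higher and 24.0% lower (49.4% in either direction), so 6 of 9 members stand against that background, and nothing particular to the members is read from the count. The median log2 fold change of the members was -0.08, against 0.01 over all tested genes. It rests on single libraries, at -0.27 without Mettl3-ASO replicate 2 and 0.01 without ASO-Control replicate 5. The FPKM ranges of the groups did not overlap for Sall4 and Esrrb, both higher in Mettl3-ASO, while such separation was found in 25.6% of tested genes. In batch 2 alone 39.0% of genes were called, and the same 6 members among them. In the untagged libraries alone, 2 per group, 6.26% were called and Esrrb was the only member. These are bulk measurements, in which fewer cells of a type and less RNA per cell cannot be told apart.

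**Figure D1:**
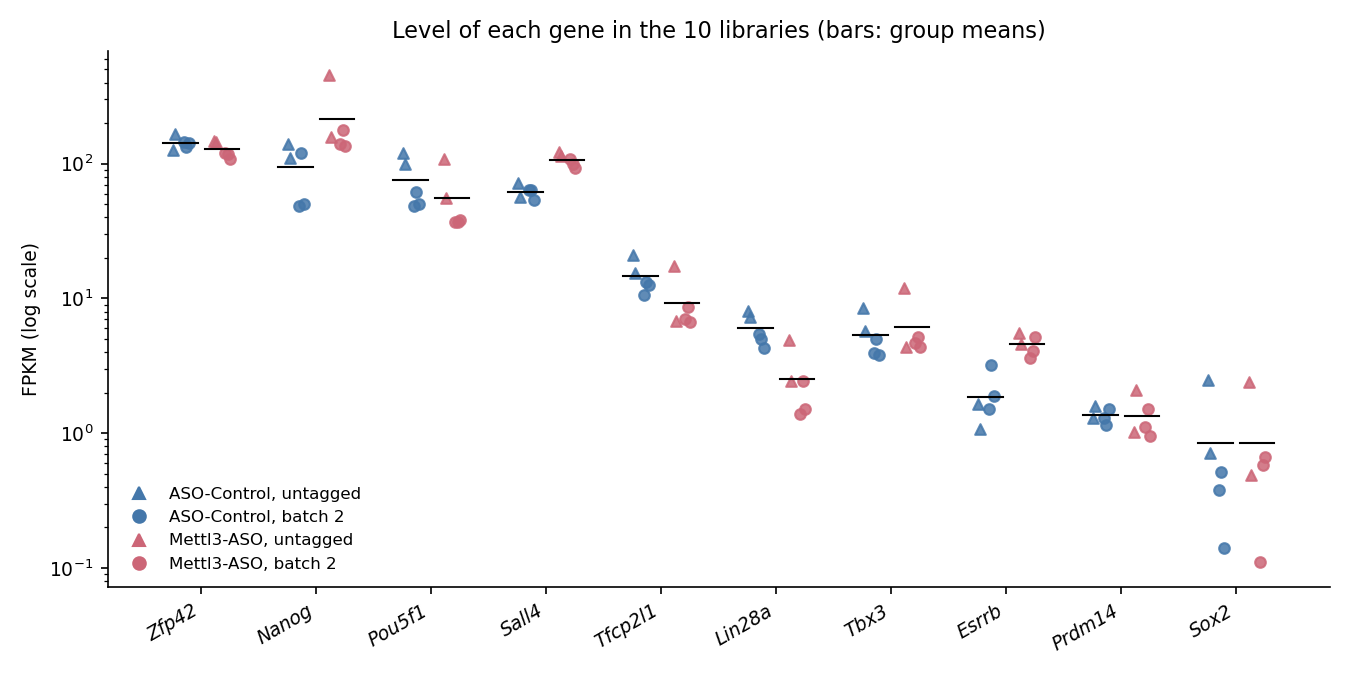
FPKM of the 10 genes (log axis) in each of the 10 libraries, with blue for ASO-Control, red for Mettl3-ASO, triangles for untagged and circles for batch 2 libraries, and black bars at the group means. Sall4 and Esrrb are separated by group, Lin28a is lower in Mettl3-ASO within each batch, and Mettl3-ASO replicate 1 is the highest point of Nanog at 454.06 FPKM.

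Pou5f1, at chromosome 17, 35506018 to 35510772 on the plus strand (GRCm38), encodes the POU factor at the centre of the network. Its FPKM was 119.89, 98.96, 48.52, 61.94 and 50.31 in ASO-Control replicates 1 to 5 and 108.32, 55.70, 37.09, 36.86 and 37.89 in Mettl3-ASO. The ranges overlap over all libraries through Mettl3-ASO replicates 1 and 2, whereas in batch 2 each Mettl3-ASO library lay below each control. The mean went from 75.9 ± 31.9 to 55.2 ± 30.8 FPKM (SD, n = 5), a log2 fold change of -0.64 ± 0.15 (SE; adjusted p = 0.00332). The change was -0.68 in batch 2 (adjusted p = 0.0111) and -0.56 in the untagged libraries (adjusted p = 0.27), and without the batch term the call was lost (adjusted p = 0.0937). Pou5f1 was also the member that differed between batches: batch 2 was lower than untagged by a log2 value of -0.88 ± 0.15 (adjusted p = 0.00397), where 15.7% of all tested genes were called. Of its exon bases, 14.1% overlap Gm19553 on the opposite strand, whose reads cannot be told apart without strand.

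Nanog, the homeodomain factor of the epiblast, moved the opposite way. It lies on chromosome 6, 122707489 to 122714633, on the plus strand. Its FPKM was 140.73, 109.80, 48.23, 120.19 and 50.55 in ASO-Control and 454.06, 158.01, 140.83, 179.27 and 136.09 in Mettl3-ASO. Within each batch every Mettl3-ASO library was above every control, and ASO-Control replicate 1 alone reached into the Mettl3-ASO range. Mean levels were 93.9 ± 42.1 and 213.7 ± 135.5 FPKM (SD, n = 5), a 2.10-fold rise in counts (log2 1.07 ± 0.27, SE; adjusted p = 0.00507). The log2 change was 1.01 in batch 2 (adjusted p = 0.0235) and 1.17 in the untagged libraries (adjusted p = 0.125). Without Mettl3-ASO replicate 1, the high library, it was 0.83 (adjusted p = 0.0141). Nanog has processed pseudogenes, and 4.67% of the 50-base windows of its transcript are found in transcripts of other genes.

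The levels of this pair can be set against each other within single libraries. The ratio of Nanog to Pou5f1 FPKM was 1.17, 1.11, 0.994, 1.94 and 1.0 in ASO-Control replicates 1 to 5. In Mettl3-ASO it was 4.19, 2.84, 3.8, 4.86 and 3.59. Mettl3-ASO replicate 1, the highest library of its group in both genes, was inside the range of its group in the ratio. The pair was chosen after the direction of each gene was known, so the separation of the groups in the ratio is a description and adds no support.

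**Figure D2:**
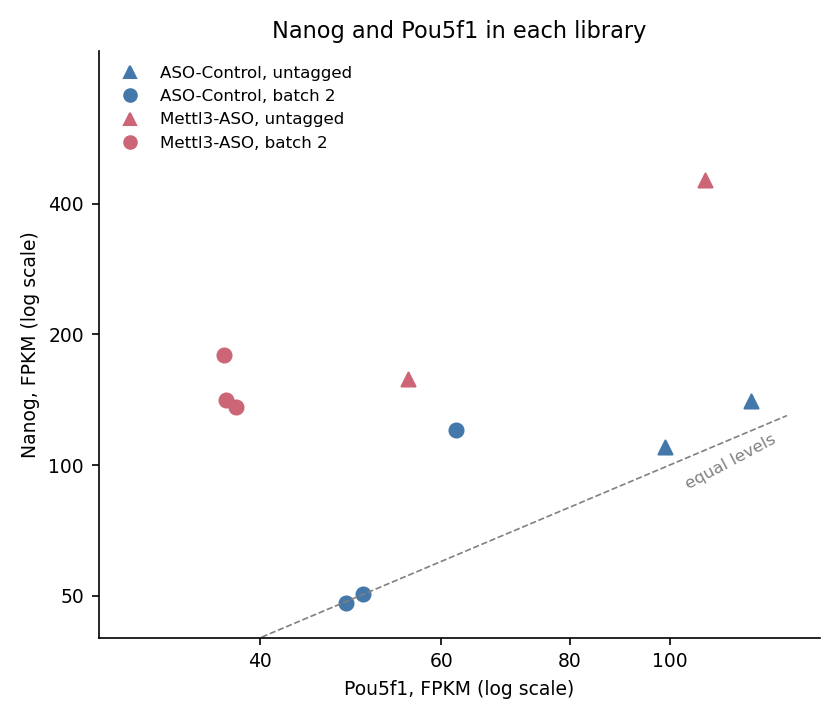
Nanog against Pou5f1 in each library, both in FPKM on log axes, with the dashed line at equal levels, blue for ASO-Control and red for Mettl3-ASO, triangles for untagged and circles for batch 2. The control libraries lie at ratios of 0.994 to 1.94, and the Mettl3-ASO libraries at 2.84 to 4.86.

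Sox2, the HMG-box partner of Oct4, was scarcely detected. It is a single-exon gene on chromosome 3, 34650405 to 34652461, plus strand. Its FPKM was 2.49, 0.71, 0.38, 0.52 and 0.14 in ASO-Control and 2.38, 0.49, 0.11, 0.58 and 0.67 in Mettl3-ASO, from 7 to 72 counts per library. Replicate 1 was the highest library of each group, and the groups covered the same range. With a mean of 0.847 FPKM it missed the minimum of 1 for testing. In a fit with no minimum (19442 genes) its log2 fold change was 0.06 ± 0.48 (SE; adjusted p = 0.941), an error too wide to exclude a change of moderate size.

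Sall4, the zinc-finger partner of Oct4 and Nanog, lies on chromosome 2, 168748332 to 168767943, minus strand. Its FPKM was 72.44, 56.78, 63.42, 63.77 and 54.00 in ASO-Control and 121.77, 113.79, 109.06, 99.02 and 92.71 in Mettl3-ASO. The lowest Mettl3-ASO library was above the highest control, and the spread within groups was narrow. The mean rose from 62.1 ± 7.17 to 107.3 ± 11.6 FPKM (SD, n = 5), which was 1.68-fold in counts (log2 0.75 ± 0.10, SE; adjusted p = 0.000102). The log2 change was 0.70 in batch 2 (adjusted p = 0.00217) and 0.83 in the untagged libraries (adjusted p = 0.0726). Gm14261 overlaps 9.5% of its exon bases on the other strand.

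Esrrb, an orphan nuclear receptor of the naive network, lies on chromosome 12, 86361117 to 86521628, plus strand. Its FPKM was 1.65, 1.08, 1.52, 3.20 and 1.89 in ASO-Control and 5.58, 4.60, 3.61, 4.11 and 5.14 in Mettl3-ASO. Again all Mettl3-ASO libraries exceeded all controls, with ASO-Control replicate 4 nearest to them. The mean went from 1.87 ± 0.801 to 4.61 ± 0.786 FPKM (SD, n = 5), a 2.42-fold rise in counts (adjusted p = 0.00149). Its log2 change was 0.94 in batch 2 (adjusted p = 0.0325) and 1.85 in the untagged libraries (adjusted p = 0.0398).

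Tfcp2l1, a grainyhead-family factor downstream of LIF and Stat3, fell. It lies on chromosome 1, 118627945 to 118685168, plus strand. Its FPKM was 21.03, 15.54, 10.65, 13.18 and 12.65 in ASO-Control and 17.37, 6.77, 7.01, 8.59 and 6.74 in Mettl3-ASO. Mettl3-ASO replicate 1 lay among the controls and the other four lay below all of them. The mean went from 14.6 ± 3.99 to 9.30 ± 4.58 FPKM (SD, n = 5), which in counts was a log2 change of -0.73 ± 0.19 (SE; adjusted p = 0.00607). The log2 change was -0.74 in batch 2 (adjusted p = 0.00498), -0.68 in the untagged libraries (adjusted p = 0.3) and -0.92 without Mettl3-ASO replicate 1 (adjusted p = 0.000461).

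For 3 members no difference passed the test. Zfp42, a zinc-finger gene of the YY1 family long used as a marker of undifferentiated cells, had 125.30, 166.57, 145.89, 132.45 and 141.28 FPKM in ASO-Control and 147.17, 145.75, 119.87, 118.33 and 108.07 in Mettl3-ASO (chromosome 8, 43295063 to 43306980, minus strand). Its log2 fold change was -0.21 ± 0.12 (SE; adjusted p = 0.158), and without ASO-Control replicate 1, the lowest control, it was -0.30 (adjusted p = 0.0388). Of the 50-base windows of its transcript 9.52% also occur in the pseudogene Zfp42-ps1, so some of its reads may be shared.

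Tbx3, a T-box factor (chromosome 5, 119670669 to 119684724, plus strand), had 8.51, 5.72, 3.92, 4.97 and 3.81 FPKM in ASO-Control and 12.05, 4.38, 4.68, 5.21 and 4.35 in Mettl3-ASO. Replicate 1 was the highest in each group, and the log2 fold change was 0.12 ± 0.21 (SE; adjusted p = 0.666). Prdm14, a PR-domain factor of naive and germ cells (chromosome 1, 13113457 to 13127163, minus strand), stayed at 1.15 to 1.59 FPKM in ASO-Control and 0.95 to 2.11 in Mettl3-ASO. Its log2 fold change was -0.08 ± 0.31 (SE; adjusted p = 0.84), so the data do not limit a moderate change.

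Lin28a, which keeps let-7 precursors from being processed, fell. It lies on chromosome 4, 134003330 to 134018841, minus strand. Its FPKM was 8.03, 7.23, 5.46, 5.02 and 4.32 in ASO-Control and 4.94, 2.43, 1.40, 2.44 and 1.52 in Mettl3-ASO. Within each batch all Mettl3-ASO libraries were below all controls, and Mettl3-ASO replicate 1 exceeded only the lowest control of batch 2. The mean went from 6.01 ± 1.56 to 2.55 ± 1.43 FPKM (SD, n = 5), and the level in counts was 2.56-fold lower (log2 -1.36 ± 0.22, SE; adjusted p = 0.000282). The log2 change was -1.50 in batch 2 (adjusted p = 0.00211) and -1.12 in the untagged libraries (adjusted p = 0.119). The size of this change and that of Esrrb (log2 1.27 ± 0.26) lay within their errors of each other, and Esrrb's was the larger in some alternatives, among them the untagged libraries alone. Gm13061 overlaps 5.86% of its exon bases on the other strand.

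A difference in response between the batches was not detectable in this design, with 2 and 3 libraries per group. The interaction of group and batch was called for 0 genes by edgeR's quasi-likelihood test (0% of those tested), with 159 genes (1.67%) at an unadjusted p under 0.05, and the adjusted p was 1 for each tested member. The widest difference was that of Esrrb, with a log2 interaction of -0.93 ± 0.48 (SE).

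**Figure D3:**
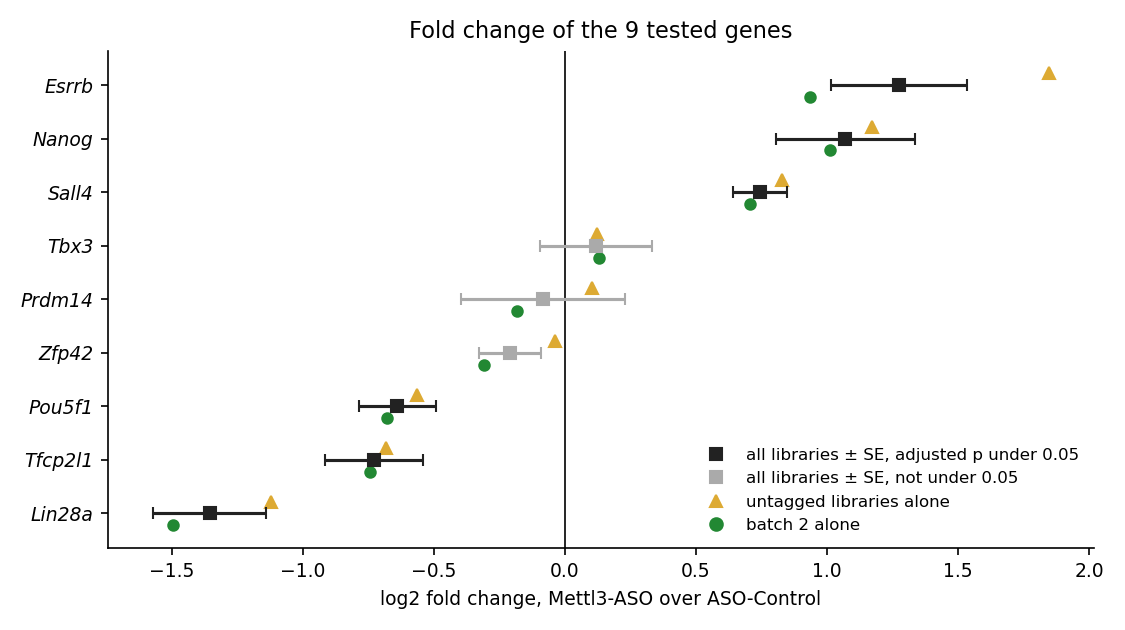
Log2 fold change of Mettl3-ASO over ASO-Control for the 9 tested genes, with squares and bars for the estimate ± SE over all libraries (black where the adjusted p is under 0.05), triangles for the untagged libraries alone and circles for batch 2 alone. The 3 rises and 3 falls have the same sign in both batches, from 1.27 for Esrrb to -1.36 for Lin28a over all libraries.

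On the per-length FPKM scale the order of the levels also differed by group. In ASO-Control it ran Zfp42, Nanog, Pou5f1, Sall4, Tfcp2l1, Lin28a, Tbx3, Esrrb, Prdm14 and Sox2. Neighbours separated without overlap only between Sall4 and Tfcp2l1, Tfcp2l1 and Lin28a, and Tbx3 and Esrrb. In Mettl3-ASO it ran Nanog, Zfp42, Sall4, Pou5f1, Tfcp2l1, Tbx3, Esrrb, Lin28a, Prdm14 and Sox2, and only Pou5f1 and Tfcp2l1 separated without overlap. Lin28a thus went from the sixth place to the eighth, below Tbx3 and Esrrb, and its mean rank among tested genes from the 43.5 to the 19.8 percentile. Esrrb went from the 18.5 to the 35.0 percentile, and Pou5f1 from the 82.9 to the 79.0.

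The estimated transcript length, a mean over the transcripts of a gene weighted by their abundance, is a second readout. It varied for Pou5f1, Nanog, Sall4 and Tbx3 and was constant for the other members. For Pou5f1, where 2 transcripts are listed, it was 1255.19 to 1288.65 bases in ASO-Control and 1128.34 to 1230.04 in Mettl3-ASO, without overlap. The mean difference was -5.81%, against a median absolute difference of 0.342% over the 2637 tested genes whose length varies. By exact permutation (two-sided) p was 0.0167, as small as the design allows, and 0.126 after adjustment. That was the smallest adjusted p of any gene, with 350 genes at the same floor. The adjusted test could therefore call no gene, whatever the size of its difference. For Nanog, with 4 listed transcripts, the lengths were 2046.37 to 2092.88 and 2023.78 to 2059.01 bases, overlapping, with a mean difference of -1.45% and the same exact permutation p of 0.0167 (adjusted 0.126). Of all genes tested for length, 13.3% reached that smallest p. A transcript from the inner start of Pou5f1 shown above lacks exon 1. Which transcript each read came from was not analysed here.

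**Figure D4:**
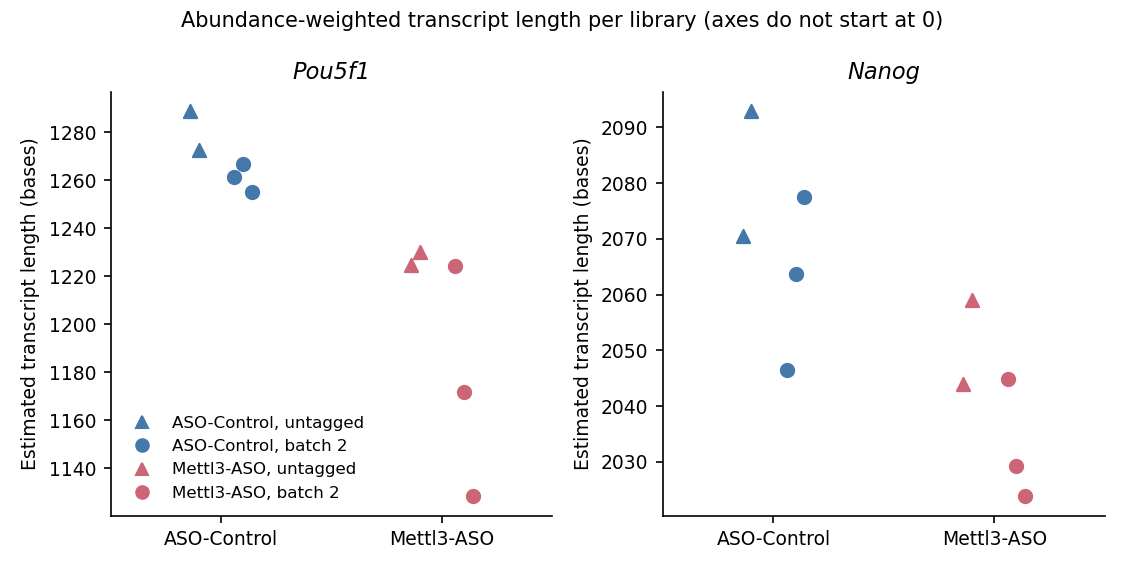
Estimated transcript length in bases for Pou5f1 (left) and Nanog (right) in each library, blue for ASO-Control and red for Mettl3-ASO, triangles for untagged and circles for batch 2; the axes do not start at 0. The Pou5f1 lengths of the groups do not overlap (1255.19 to 1288.65 against 1128.34 to 1230.04 bases), and those of Nanog do.

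The Mettl3 enzyme methylates adenosine mostly within the letters GGACT and its close variants. One transcript per gene was searched for GGACT on the transcript strand. Pou5f1 had 1 (0.734 per kb), Nanog 4 (1.81 per kb), Sall4 5 (0.986), Esrrb 7 (1.63) and Tfcp2l1 16 (1.73). Lin28a had 5 (1.43), Tbx3 7 (1.44), Zfp42 2 (1.13), Prdm14 1 (0.39) and Sox2 3 (1.46 per kb). The median over 9401 matched genes of those tested was 1.02 per kb, and 88.9% had at least 1. In the transcripts searched, members that rose, fell or did not pass all included genes above and below that median. Among those that rose, only Sall4 lay below it. The Sall4 transcript searched has 5073 bases. Its estimated length was 2712.83 to 2735.86 bases in ASO-Control and 2720.8 to 2738.79 in Mettl3-ASO. The value of 0.986 per kb may therefore not describe the Sall4 transcripts present here. Methylation itself was not analysed here.

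Genes of the wider network were taken from lists given in the processing notes. The counts of this and the following lists stand against 25.4% of all tested genes called higher and 24.0% lower. Nothing particular to a list is read from its count. Among other regulators of naive pluripotency, 15 of 18 were tested, 6 rose and 3 fell. Their median log2 fold change was 0.17, and it was 0.34 without Mettl3-ASO replicate 3, 0.67 at a mean FPKM of at least 5 and -0.06 with limma on quantile-normalized values. Klf17, a Krüppel-like factor of very early embryos, went from 0.516 to 14.4 FPKM on average (log2 4.78 ± 0.54, SE; adjusted p = 2.14e-05). It passed the minimum for testing only through Mettl3-ASO, so its direction was largely fixed by the filter. Klf2 went from 15.5 to 41.7 FPKM (log2 1.39 ± 0.22) and Nr5a2, a nuclear receptor that binds regulatory regions of Pou5f1, from 17.6 to 38.8 (log2 1.10 ± 0.19). The 3 that fell, named after their values were seen, were Klf5, Tet2 and Stat3. Klf5 went from 112.3 to 62.7 FPKM (log2 -0.87 ± 0.18), Tet2 changed by -1.53 ± 0.39 and Stat3 by -1.45 ± 0.38 (log2). Of 19 tested chromatin and cofactor proteins that bind Oct4, Nanog or Sall4, 2 rose and 3 fell (median 0.16), and with the replicate block 5 rose and 3 fell. Those with the smallest p all fell: the demethylase gene Kdm1a (log2 -1.02 ± 0.17), and Hdac2 (-0.53 ± 0.10) and Mbd3 (-0.96 ± 0.20) of the NuRD complex.

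Genes classically bound and driven by Oct4 and Sox2 gave 2 rises and 3 falls in 13 tested (median -0.25), and 3 rises and 5 falls with the replicate block. Fgf4, the growth factor with an Oct4 and Sox2 enhancer, went from 0.982 to 9.69 FPKM (log2 3.31 ± 0.35; adjusted p = 1.45e-05). With an ASO-Control mean under 1 FPKM, Fgf4 passed the minimum for testing only through Mettl3-ASO, so its rise adds no support. Fbxo15 rose by 0.81 ± 0.19 and Jarid2, a partner of Polycomb, changed by -0.59 ± 0.19 (log2). The calls of Gdf3 (adjusted p = 0.0455) and Utf1 (adjusted p = 0.0479), named after their values were seen, lay near the threshold. The list's count was 3 without ASO-Control replicate 1 or 3, and likewise without Mettl3-ASO replicate 2 or 5. Of the signals of LIF, BMP and Wnt, 5 rose and 1 fell of 12 tested (median 0.32), and 6 rose with the replicate block, which adds Ctnnb1 (adjusted p = 0.0191, against 0.124). Socs3, the feedback inhibitor of LIF signalling, rose by 2.12 ± 0.25, and of the BMP-responsive Id genes Id2 changed by -1.81 ± 0.37 and Id3 by 1.20 ± 0.28 (log2). The LIF receptor genes Lifr and Il6st, named after their values were seen, reached at most 0.03 and 0.15 FPKM and were not tested. The count of the signals was 3 without ASO-Control replicate 2 or Mettl3-ASO replicate 5.

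Around Lin28a, 0 of 11 tested genes of let-7 processing rose and 3 fell (median 0.01), where 25.4% of all tested genes rose and 24.0% fell. The paralogue Lin28b went from 5.30 to 2.65 FPKM (log2 -1.06 ± 0.22; adjusted p = 0.00183), in the direction of Lin28a. Ago2, which carries microRNAs to their targets, changed by -1.57 ± 0.31, and Tarbp2, a partner of Dicer, by -0.59 ± 0.19 (log2; adjusted p = 0.0212, and 0.076 in batch 2 alone). Zcchc11 (Tut4), the uridyl transferase that Lin28a recruits, named after its values were seen, was at -0.05 ± 0.24 on the log2 scale (adjusted p = 0.877). Classical let-7 target genes gave 2 rises and 5 falls in 13 tested (median -0.23), and 6 falls with the replicate block, which adds Cdc25a (adjusted p = 0.0401, against 0.159). Nr6a1, a nuclear receptor that represses Pou5f1 during differentiation, went from 6.25 to 0.212 FPKM (log2 -4.88 ± 0.52; adjusted p = 1.44e-05). It passed the minimum for testing only through ASO-Control, so its direction was largely fixed by the filter. Myc rose by 1.72 ± 0.21 and Nras changed by -0.82 ± 0.12 (log2). Mature let-7 was not analysed here.

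Genes of later or other fates gave few tests. Of formative and primed pluripotency genes 4 of 12 were tested, with 1 rise (Dnmt3a, log2 0.84 ± 0.15) and 1 fall (Dnmt3b, 13.8 to 3.67 FPKM, log2 -1.95 ± 0.31). With the replicate block 2 rose and 2 fell, Otx2 among them (log2 -0.94 ± 0.40, adjusted p = 0.0672, and 0.00198 with the block), and 4 were also called without Mettl3-ASO replicate 2. Otx2 was called without ASO-Control replicate 1 too. Of the trophectoderm and primitive endoderm factors 6 were tested. Hand1 rose by 2.26 ± 0.26, Gata3 changed by -2.19 ± 0.37, and Cdx2, which Oct4 opposes, by -1.15 ± 0.43 (log2; adjusted p = 0.042). The call of Cdx2 was lost without ASO-Control replicate 1, 3 or 4 and without Mettl3-ASO replicate 3, 4 or 5, and over all alternatives but the untagged libraries alone its adjusted p reached 0.123. Of family relatives of the members 12 of 28 were tested, 6 rose and 2 fell (median 0.56). Sox15, a Sox gene more abundant here than Sox2, went from 96.0 to 226.9 FPKM (log2 1.21 ± 0.16). Yy1 rose by 1.11 ± 0.14 and Tfcp2, a relative of Tfcp2l1, by 1.72 ± 0.31 (log2). Tfcp2, at a mean of 0.752 FPKM in ASO-Control, passed the minimum for testing only through Mettl3-ASO.

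**Figure D5:**
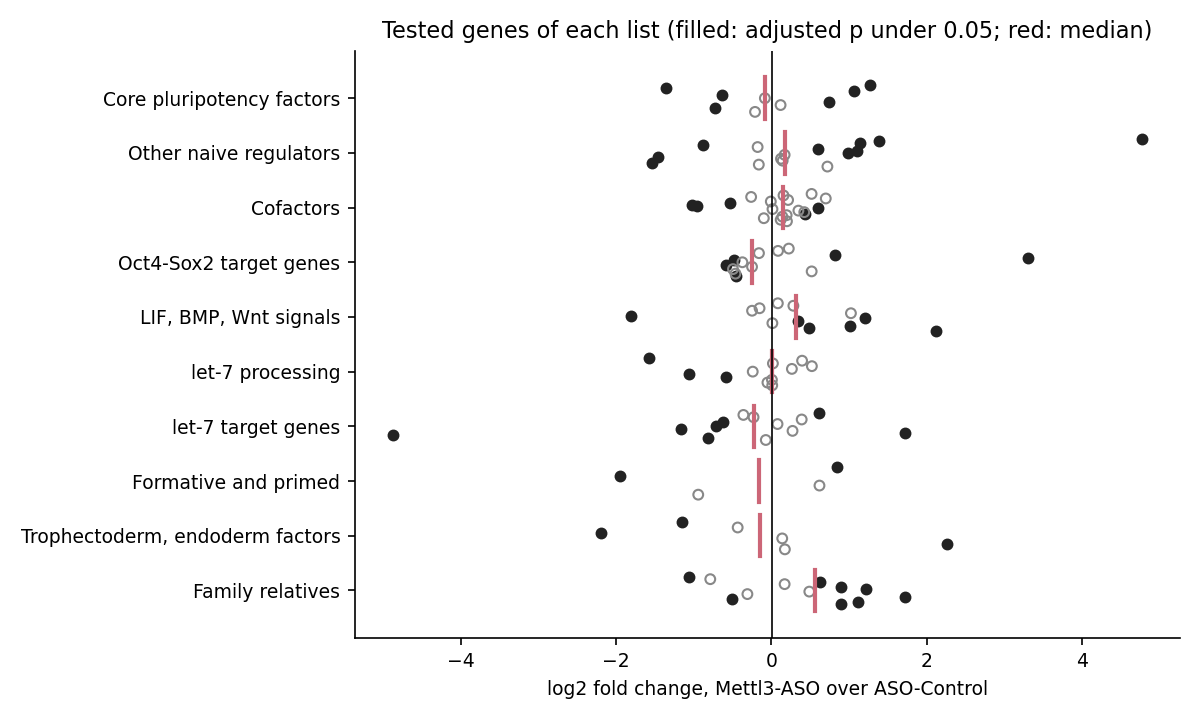
Log2 fold change of each tested gene (Mettl3-ASO over ASO-Control) in the members and 9 gene lists, filled where the adjusted p is under 0.05, with red bars at list medians and the black line at the median of all tested genes. The extremes are Klf17 at 4.78 among the naive regulators and Nr6a1 at -4.88 among the let-7 targets. Klf17 passed the minimum for testing only through Mettl3-ASO, and Nr6a1 only through ASO-Control.

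Over the 10 libraries, the patterns most like those of the 4 best-known members were found by the root mean square difference of centred log2(FPKM + 1) profiles. Nearest to Pou5f1 were Narfl (0.145), Git1 (0.149) and Atp5a1 (0.153), where the median over all tested genes was 0.627. Nearest to Nanog were Aurkb (0.207), Ldb1 (0.264) and Rraga (0.273), with a median of 0.858. Nearest to Sox2 were Med24 (0.14), Ap1ar (0.173) and Eif4g1 (0.182), with a median of 0.59, which follow a gene of few counts. Nearest to Lin28a were Mrps36 (0.136), Itgb1 (0.136) and Macf1 (0.139), with a median of 0.68.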

How the data were processed

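STAR 2.7.10, RSEM 1.3.3 and the build mm10 are named per the submitters' processing notes. Options, annotation release and strand use are not given in the sources used here. For each gene, the authors deposited expected counts (estimated counts that share out reads matching several genes), TPM, FPKM and transcript length. The FPKM values of the authors are scaled to length and fragments, and the deposited TPM values to a common sum per library. Members and gene lists were chosen with earlier results of these data known.

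Groups came from the sample titles. Expected counts were rounded and tested with edgeR 4.0.16 (R 4.3.3, TMM scaling, quasi-likelihood test, terms for batch and group) for the 9522 genes whose FPKM averaged 1 or more, and adjusted p-values are Benjamini-Hochberg values over those genes. A gene low in ASO-Control, such as Klf17 at a mean of 0.516 FPKM, could enter only through Mettl3-ASO, and the reverse also holds. Standard errors are the absolute log2 fold change over the square root of F. The labels do not tell whether each library had its own fertilization, so p-values measure the spread between libraries, which may be technical. All 8 library pairs of a group and batch differed beyond sampling noise (chi-square over its degrees of freedom at least 24.3). Transcript lengths and Mettl3 were compared by exact permutation within batches. The comparison of batch 2 with untagged libraries was added after the data were seen. Same-numbered libraries deviated together from their group and batch means, with correlations of 0.315, 0.315, 0.215, 0.212 and 0.19 for numbers 1 to 5. The first pair of values is equal by construction. Differently numbered libraries were not compared in this way, and the labels state no pairing. A fit with the replicate block was run as an alternative that assumes the numbers pair the libraries. Other alternatives were other scalings and filters, DESeq2 1.42.0, limma 3.58.1 on log2 FPKM or TPM, each batch alone and leaving out each library.

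The text names all members, Mettl3, in each list the 3 genes with the smallest p, and for 4 members the 3 genes of most similar profile; others are said to be chosen after their values were seen. The lists hold other naive regulators, cofactors, Oct4 and Sox2 targets, LIF, BMP and Wnt signals, let-7 processing, let-7 targets, formative genes, opposing factors and family relatives. Coordinates are GENCODE vM21 on GRCm38. On simulated counts for these 10 libraries and 9522 genes the fit recovered 48% of 2-fold and 96% of 4-fold changes, and 5.26% of its calls were false. The simulation changed 100 genes at each fold and gave no gene a batch difference. In the data 49.4% of genes were called and 15.7% differed between batches, so these rates need not hold for them.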

Additional observations from a re-analysis of the deposited data

Results flagged for a closer look

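In each group of 5 libraries the highest and lowest value of every member was compared with its nearest neighbour (Dixon's test at a critical value of 0.71). Of 20 sets of values, 6 held a library far from the others, and chance gives about 1 in 20. That rate assumes independent sets from a single batch, whereas each set mixes untagged and batch 2 libraries and the same library recurs. In 5 of the 6 the library was Mettl3-ASO replicate 1: Pou5f1 was 108.32 FPKM there (others 36.86 to 55.7), Nanog 454.06 (others 136.09 to 179.27), Tfcp2l1 17.37 (others 6.74 to 8.59), Tbx3 12.05 (others 4.35 to 5.21) and Sox2 2.38 (others 0.11 to 0.67). The sixth was Sox2 in ASO-Control replicate 1, at 2.49 FPKM (others 0.14 to 0.71). Both libraries are untagged.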

How the results depend on the processing

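Of 148 values of the 6 called members under the alternatives, 142 kept their direction and their side of the threshold, 6 kept the direction but lost the call and 0 reversed. Of those 6, 5 came from the untagged libraries alone, where 596 genes and 1 member (Esrrb) were called in place of 4704 and 6, and the sixth is Pou5f1 without a batch term. The untagged fit has 2 libraries per group. With the replicate block 5246 genes and the same 6 members were called, so it changed no member's call. In the lists 12 genes gained a call with it and 0 lost one: 10 in lists whose block counts are given above, and Cdh1 and Figla among the markers. Zfp42 was the 1 member that gained a call, without ASO-Control replicate 1. In batch 2 alone the difference of Mettl3 was -6.97 FPKM with an exact permutation p of 0.1, the smallest that 3 against 3 libraries allow. List counts moved by more than 1.5 times in several fits. The Oct4 and Sox2 targets, 5 called, gave 1 to 8, the signals, 6 called, 1 to 7, and the formative genes, 2 called, 0 to 4. List medians moved too. Without Mettl3-ASO replicate 1 that of the Oct4 and Sox2 targets was -0.46, that of the let-7 targets -0.35 and that of the opposing factors -0.32. The formative median, over few genes, ran from -1.38 to 0.75 between filters, and that of the family relatives from 0.18 to 1.06 over all alternatives. Sox2 had 7 to 72 counts per library, too few to fix its fold change.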
